A study of Homo sapiens with 2 samples.

Results

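ANKRD1 and further genes known as targets of the coactivator YAP or of the transcription factor SRF were compared between EGFP-ARHGAP4 and EGFP vector cells. Both are derivatives of MCF-10A, an established line of human breast epithelial cells that does not form tumours. The genes were chosen by name, with ANKRD1 selected on its large difference between these same arrays, so the values of the list describe the arrays and support nothing further. Of the 10 listed genes, 6 had a named feature among the 14812 named genes of the table: ANKRD1, CCN2, AMOTL1, AMOTL2, AJUBA and SRF. CCN1, LATS2, PTPN14 and NT5E were without a feature in the annotation and are not analysed here. The 6 measured genes rested on 8 features.

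The EGFP-ARHGAP4 sample was MCF-10A with stable expression of ARHGAP4, a GTPase-activating protein, joined to the green fluorescent protein EGFP. The EGFP vector sample was MCF-10A with stable expression of EGFP from the vector. Total RNA of each was hybridised to 1 whole-transcript Affymetrix array, so each group holds 1 sample. No difference below has a replicate check, a p-value or an SD. The sources do not state whether the lines were single clones or pools of cells.

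YAP and its relative TAZ (gene WWTR1) are coactivators held in the cytoplasm by the kinases of the Hippo pathway, and in the nucleus they act mainly through the DNA-binding TEAD factors. SRF binds CArG boxes and works with the actin-regulated coactivators MRTFA and MRTFB or with ternary complex factors downstream of ERK. Both pathways are known to respond to the actin cytoskeleton in epithelial cells.

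Sequence before the annotated start was available for 9 of the 10 listed genes, from RefSeq (GRCh38.p14), and not for CCN1. The 250 bases before each start were searched on both strands for the TEAD motif GGAATG, which reads CATTCC on the other strand. The AP-1 motif was searched loosely as TGANTCA, with any base at N. The CArG box was searched as CCWWWWWWGG, with A or T at each W. A TEAD motif was present before at least 1 annotated start of 5 of the 9 genes, ANKRD1, CCN2, AMOTL2, AJUBA and PTPN14. Among all 27305 genes with such a window, 14.3% held this motif, 1.44% a CArG box and 8.06% the AP-1 motif. SRF alone of the 9 had a CArG box. ANKRD1 alone had a match to the loose AP-1 motif, with T at N. A match describes the letters and is not evidence that a factor binds there.

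The windows of ANKRD1, CCN2 and SRF are shown because ANKRD1 and CCN2, which both carry repeated TEAD motifs, had differences of opposite sign, and SRF carries the CArG boxes. Capitals mark the TEAD motifs in ANKRD1 and CCN2, the AP-1 motif TGATTCA in ANKRD1 and the CArG boxes in SRF. The ANKRD1 window lies at chr10:90921088-90921337 on the minus strand, the CCN2 window at chr6:131951373-131951622 on the minus strand, and the SRF window, before the first of 2 annotated starts, at chr6:43171019-43171268 on the plus strand.

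ANKRD1: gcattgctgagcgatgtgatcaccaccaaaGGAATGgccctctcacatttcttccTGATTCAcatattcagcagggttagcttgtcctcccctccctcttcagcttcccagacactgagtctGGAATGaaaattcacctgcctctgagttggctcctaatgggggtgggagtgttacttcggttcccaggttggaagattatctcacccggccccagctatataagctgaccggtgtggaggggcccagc

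CCN2: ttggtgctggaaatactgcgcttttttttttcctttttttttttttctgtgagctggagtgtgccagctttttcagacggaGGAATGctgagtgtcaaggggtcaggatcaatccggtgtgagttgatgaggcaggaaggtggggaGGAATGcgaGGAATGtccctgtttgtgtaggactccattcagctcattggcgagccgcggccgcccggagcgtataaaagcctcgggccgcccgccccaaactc

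SRF: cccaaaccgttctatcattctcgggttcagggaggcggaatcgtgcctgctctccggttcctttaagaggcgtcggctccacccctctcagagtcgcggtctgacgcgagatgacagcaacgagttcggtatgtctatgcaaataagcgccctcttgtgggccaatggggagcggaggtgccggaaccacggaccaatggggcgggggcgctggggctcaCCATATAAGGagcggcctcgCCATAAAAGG

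Counting back from the start, the TEAD motifs of ANKRD1 began 220 and 128 bases before it, with the AP-1 motif at 195. In CCN2 the TEAD motifs began 169, 104 and 95 bases before the start, and no AP-1 motif was found. The CArG boxes of SRF began 30 and 10 bases before its first start. None of the 3 motifs was found in the windows of AMOTL1, LATS2 and NT5E.

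**Figure D1:**
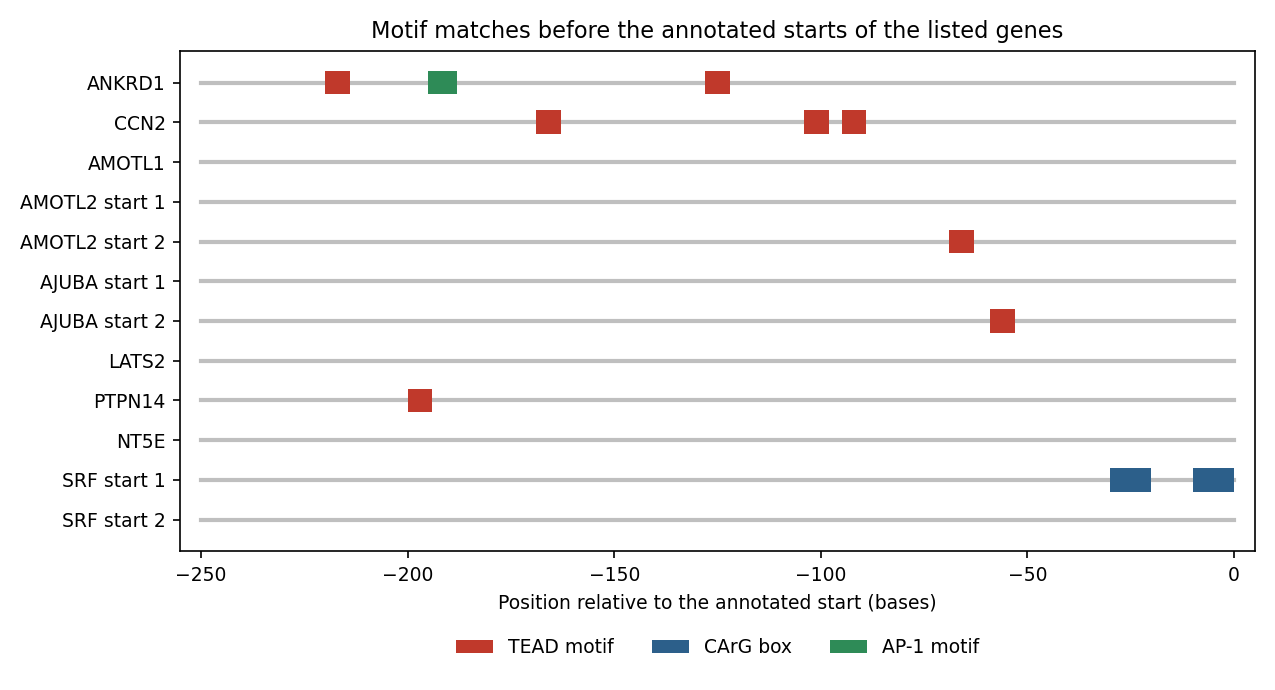
Positions of motif matches in the 250 bases before each annotated start of the 9 listed genes with a window, on the x axis in bases relative to the start. Bars mark TEAD motifs, CArG boxes and the AP-1 motif to scale: ANKRD1 has 2 TEAD motifs and 1 AP-1 motif, CCN2 has 3 TEAD motifs, and SRF has 2 CArG boxes before its first start.

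Values are the deposited log2 expression values, and differences are EGFP-ARHGAP4 minus EGFP vector, so 1 is 2-fold. The median over 44629 features was 2.88 in both arrays. A level filter was set at 4.02, the median over genes and arrays, and 7685 genes reached it in at least 1 array. Their differences had a median of -0.10, with the middle 95% between -0.76 and 0.71. Features of the same gene gave differences with a pooled SD of 0.21 over 336 genes, which describes agreement within these 2 arrays and not between cultures. ARHGAP4 itself stood at 6.68 in the EGFP-ARHGAP4 array, against 4.49 in the EGFP vector array, a difference of 2.19 in the direction of the labels.

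Epithelial markers were present: 11 of 14 measured mammary epithelial genes passed the level filter in at least 1 array. Of all 14812 named genes, 7685 did. KRT15, KRT19 and GRHL2 lay below the filter in both arrays. EPCAM, an epithelial adhesion gene, stood at 7.79 in EGFP-ARHGAP4 cells and 6.58 in EGFP vector cells. The basal keratin gene KRT14 had 6.96 in EGFP-ARHGAP4 cells and 9.21 in EGFP vector cells. Only these genes of the 14 were at 2-fold, 1 higher and 1 lower, beside 0.581% and 0.486% of all named genes. The list had a median difference of 0.05, and the keratin gene KRT5 stood at 8.34 in EGFP-ARHGAP4 cells and 8.33 in EGFP vector cells. For TP63 and CDH1 the annotation held no feature.

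ANKRD1 was the one measured target with a large difference. It encodes a nuclear and sarcomeric ankyrin repeat protein, known from heart muscle and as a stress-induced and YAP-induced gene in other cells. Its log2 value was 6.03 in the EGFP-ARHGAP4 array, against 3.52 in the EGFP vector array. The difference of 2.51, or 5.69-fold, was the third highest of the 7685 genes past the filter. The EGFP vector value lay below the level filter, at the 42.1 percentile of gene levels in that array, and the EGFP-ARHGAP4 value lay at the 77.2 percentile of its own array. Differences narrow near background, so the fold is approximate, and it rests on a single feature.

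CCN2, which encodes the secreted matricellular protein also called connective tissue growth factor and is among the most used readouts of YAP activity, was lower in the EGFP-ARHGAP4 array. Its stronger feature stood at 5.64 in EGFP-ARHGAP4 cells and 6.12 in EGFP vector cells, a difference of -0.48. The other feature stood at 1.57 in EGFP-ARHGAP4 cells and 1.83 in EGFP vector cells, a difference of -0.26, with both values below the median of all features. Both features thus had the same sign, opposite to that of ANKRD1. Averaged, CCN2 had 3.60 in EGFP-ARHGAP4 cells and 3.98 in EGFP vector cells, a difference of -0.37 at a mean level just below the filter. Of the genes past the filter, 17.4% had a lower difference than that. The 8 nearest genes past the filter on chromosome 6 had a median of -0.34, between -1.15 and 0.11, so the difference of CCN2 was close to that of its surroundings.

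The angiomotin family genes and AJUBA encode junctional proteins that act back on YAP. AMOTL1 and AMOTL2 are scaffolds that bind YAP and the LATS kinases, and AJUBA is a LIM domain protein that inhibits LATS. None of the 3 differed by 0.2 in either direction. AMOTL1 averaged 6.71 in EGFP-ARHGAP4 cells and 6.64 in EGFP vector cells. One of its features stood at 8.33 in EGFP-ARHGAP4 cells and 8.20 in EGFP vector cells. The other held 5.08 in both arrays, equal to the last digit, as 6.96% of all features do, and such a feature cannot show a difference.

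AMOTL2 stood at 5.46 in EGFP-ARHGAP4 cells and 5.43 in EGFP vector cells. AJUBA stood at 6.45 in EGFP-ARHGAP4 cells and 6.46 in EGFP vector cells. Its difference of -0.01 became 0.09 after quantile normalization and 0.10 after removal of the trend of differences with level, so it has no settled sign. All 3 of these genes lay well inside the spread of the genes past the filter, with 60.6% to 69.8% of those genes at a lower difference.

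SRF, the transcription factor and a target of its own activity, stood at 7.53 in EGFP-ARHGAP4 cells and 7.51 in EGFP vector cells. The difference of 0.02 was far below the 0.21 by which features of 1 gene disagree. With 1 array per group, a difference of this size can be neither detected nor shown to be absent.

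**Figure D2:**
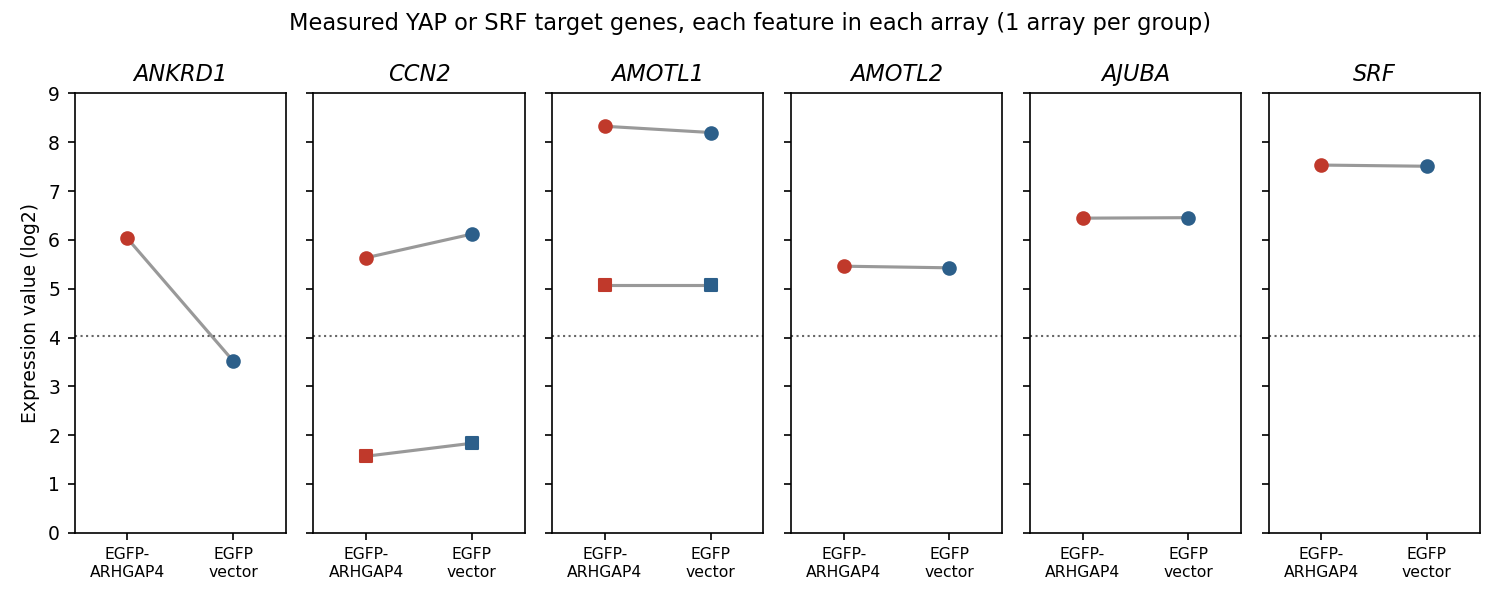
Deposited log2 expression value (y axis) of each feature of the 6 measured genes in the EGFP-ARHGAP4 array and the EGFP vector array, joined by a line. Squares are the lower of 2 features, and the dotted line is the level filter at 4.02. ANKRD1 stands at 6.03 in EGFP-ARHGAP4 cells and 3.52 in EGFP vector cells, both CCN2 features are lower in EGFP-ARHGAP4 cells, and the lines of the other genes are nearly flat.

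Of the 6 measured genes, 1 was at least 2-fold higher (ANKRD1) and 0 were at least 2-fold lower. Among genes past the filter the 2-fold share was 1.0% in the higher direction and 0.794% in the lower one, and among all named genes it was 0.581% higher and 0.486% lower. Since ANKRD1 was chosen on this difference, its share of the list carries no information. At a log2 difference of 0.5 the same single gene was higher and 0 were lower, against 5.15% higher and 9.81% lower of the genes past the filter, and 4.25% higher and 6.47% lower of all named genes. The median of the 6 genes was 0.03, or 0.02 without ANKRD1, beside -0.10 for genes past the filter and -0.03 for all named genes. The difference of 4 of the 6 genes was under 0.1 in size.

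**Figure D3:**
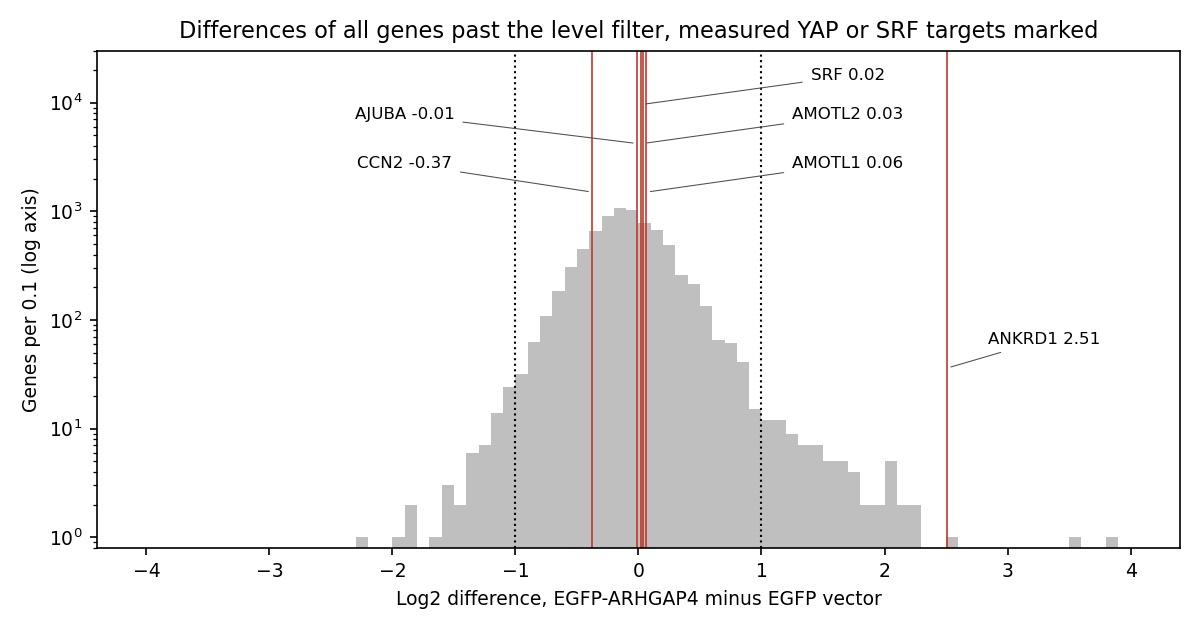
Histogram of the log2 differences, EGFP-ARHGAP4 minus EGFP vector, of the 7685 genes past the level filter, with gene counts per 0.1 on a log axis. Red lines mark the 6 measured targets, of which CCN2 is itself below the filter, and dotted lines mark 2-fold. ANKRD1 at 2.51 lies in the far upper tail, while SRF, AMOTL1, AMOTL2 and AJUBA lie within 0.1 of 0.

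ANKRD1 lies on the long arm of chromosome 10, where most genes near it were slightly higher in the EGFP-ARHGAP4 array. Among the 40 genes past the filter on each side, 69 of 80 had a difference above 0. Their median was 0.28 with quartiles of 0.15 and 0.44. Of all genes past the filter, 36.7% were above 0, and the median was -0.10. The nearest genes before it in chromosome order were KIF20B at -0.02, whose sign changed after quantile normalization and removal of the level trend, and RPP30 at 0.35, and the nearest after it PCGF5 at 0.16 and MARCHF5 at 0.36. ADIRF, at 1.21, was the only other gene of the window at 2-fold and was picked out after its value was seen, as was KIF11, the lowest at -0.37. The difference of ANKRD1 exceeded that of every neighbour in the window. How far the regional shift enters it was not tested.

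**Figure D4:**
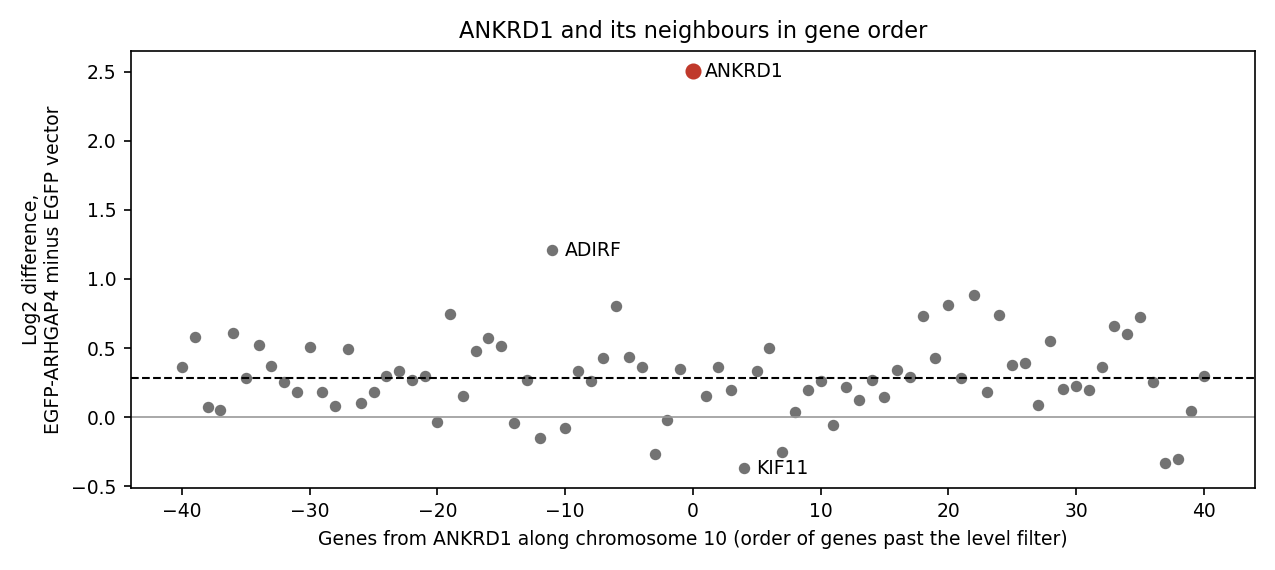
Log2 difference, EGFP-ARHGAP4 minus EGFP vector, of ANKRD1 (red) and of the 40 genes past the level filter on each side (grey), in gene order along chromosome 10. The dashed line is the median of the 80 neighbours, 0.28, and ANKRD1 at 2.51 stands above all of them, the next being ADIRF at 1.21.

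Cell types known for ANKRD1 expression, and fibroblasts, were checked through their markers. In bulk RNA, fewer cells of a type and less RNA per cell cannot be told apart. Of 9 measured striated muscle markers, 6 lay below the level filter in both arrays. For comparison, 7685 of all 14812 named genes reached it in at least 1 array. All 9 ranged from 1.495 to 4.75 in EGFP-ARHGAP4 cells and from 1.60 to 4.52 in EGFP vector cells, and none differed by 0.5. Of 9 measured endothelial markers, 7 lay below the filter. The exceptions were CLDN5, a tight junction gene at 4.32 in EGFP-ARHGAP4 cells and 4.31 in EGFP vector cells, and KDR. KDR stood at 5.63 in EGFP-ARHGAP4 cells and 3.36 in EGFP vector cells, so it passed only through the EGFP-ARHGAP4 array. Of 5 measured fibroblast markers 4 lay below the filter, and FBLN1, which encodes the matrix protein fibulin-1, stood at 5.59 in EGFP-ARHGAP4 cells and 5.37 in EGFP vector cells.

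The genes whose pair of values lay nearest to that of ANKRD1 were KDR, TSPAN1, NEO1, TRIM22 and CA8, by straight-line distance over the 2 arrays. With 2 arrays such nearness is a weak description. KDR, TSPAN1 and CA8, like ANKRD1, passed the level filter only through the EGFP-ARHGAP4 array. KDR, the main VEGF receptor of endothelial cells, lay 0.43 log2 units away, at 5.63 in EGFP-ARHGAP4 cells and 3.36 in EGFP vector cells. TSPAN1, a tetraspanin, lay 0.48 away, at 5.64 in EGFP-ARHGAP4 cells and 3.799 in EGFP vector cells. The other 3 lay 0.77 to 0.82 away. They were NEO1, the netrin receptor neogenin, TRIM22, an interferon-induced gene, and CA8, a carbonic anhydrase-related gene. Their differences were 1.41, 1.38 and 1.63. CA8 stood at 5.21 in EGFP-ARHGAP4 cells and 3.58 in EGFP vector cells.

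Genes of the same pathways were then read from lists chosen with earlier results of these data known. The DNA-binding and coactivator genes of the YAP pathway were all measured, 10 of 10, with a median of -0.13. YAP1 stood at 6.84 in EGFP-ARHGAP4 cells and 7.18 in EGFP vector cells, and TEAD1, a DNA-binding partner of YAP, at 7.89 in EGFP-ARHGAP4 cells and 8.18 in EGFP vector cells. VGLL3, a vestigial-like cofactor that binds TEAD factors in place of YAP, was the exception. It stood at 7.19 in EGFP-ARHGAP4 cells, against 5.50 in EGFP vector cells, a difference of 1.69 or 3.24-fold. The 8 genes nearest to VGLL3 on chromosome 3 had a median of -0.24 and a highest value of 0.36.

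The Hippo kinase core was measured for 5 of 6 genes, with a median of -0.20, and none differed by 0.5. SAV1, the scaffold of the upstream kinases, stood at 5.68 in EGFP-ARHGAP4 cells and 5.97 in EGFP vector cells. MOB1A and MOB1B, activators of the LATS kinases, differed by -0.20 and -0.13.

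Upstream regulators of the pathway had a median of -0.20 over 23 of 36 genes. None was higher by 0.5, where 4.25% of all named genes were. Lower by that much were 5, or 21.7%, beside 6.47% of all named genes and 9.81% of those past the filter. PARD3, a polarity scaffold, stood at 4.79 in EGFP-ARHGAP4 cells and 5.72 in EGFP vector cells. It lies on chromosome 10 among genes with a median of -0.75, so its value was close to that of its surroundings. WWC2, a scaffold of the KIBRA family, stood at 5.40 in EGFP-ARHGAP4 cells and 6.32 in EGFP vector cells, with a median of -0.34 among its 8 neighbours. WTIP, a LIM protein related to AJUBA, stood at 5.25 in EGFP-ARHGAP4 cells and 5.999 in EGFP vector cells, where its neighbours on chromosome 19 had a median of 0.26. The kinase genes MAP4K5 at -0.66 and MARK1 at -0.60 complete the 5 and were added after their values were seen.

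Other known YAP target genes had a median of -0.12 over 18 of 28 genes, beside -0.10 for genes past the filter. Of the 18, 12 were below 0 (66.7%) and 5 above. Below 0 were 61.4% of genes past the filter and 52.9% of all named genes. By sign and median the list thus lay near the background. FSTL1, a secreted follistatin-like glycoprotein, was the only one at 2-fold, where 0.486% of all named genes were that much lower, at 4.79 in EGFP-ARHGAP4 cells and 6.03 in EGFP vector cells, a difference of -1.24. Its 8 neighbours on chromosome 3 ranged from -0.40 to 0.33. MYOF, a membrane repair protein, was the highest at 9.03 in EGFP-ARHGAP4 cells and 8.53 in EGFP vector cells. On chromosome 10 it follows ANKRD1 by 6 places in the order of genes past the filter. EDN1, the peptide endothelin-1, stood at 5.41 in EGFP-ARHGAP4 cells and 4.95 in EGFP vector cells. As deposited, MYOF at 0.497 and EDN1 at 0.46 stayed under 0.5. Both passed it after quantile normalization (0.57 and 0.55) and after removal of the level trend (0.62 and 0.54). They were then 11.1% of the list, beside 5.27% and 5.29% of all named genes. None of the 18 was 2-fold higher, where 0.581% of all named genes and 1.0% of those past the filter were. At such shares a list of 18 genes would seldom hold a gene that much higher, so its absence carries no information.

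On the SRF side, MRTFA and MRTFB, the actin-regulated coactivators, differed by -0.11 and -0.28. Cytoskeletal SRF and MRTF targets had a median of -0.09 over 22 of 40 genes, with 13 below 0 (59.1%), 8 above and none at 2-fold, and thus lay near the background as well. The 2 lower by at least 0.5, or 9.09% beside 6.47% of all named genes and 9.81% of those past the filter, were TPM4, a tropomyosin gene at 8.11 in EGFP-ARHGAP4 cells and 8.62 in EGFP vector cells, and SVIL, an actin-binding protein at 4.41 in EGFP-ARHGAP4 cells and 5.25 in EGFP vector cells. TPM4, at -0.50, no longer reached that threshold after quantile normalization (-0.40) or removal of the level trend (-0.38). SVIL lies on chromosome 10 among genes with a median of -0.92. LIMA1, an actin filament stabiliser, differed by -0.47.

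Immediate early targets of SRF and its ternary complex partners had a median of 0.20 over 20 of 25 genes. At least 0.5 higher were 7 of them, or 35%, beside 4.25% of all named genes and 5.15% of those past the filter. Of these 7, FOS, DUSP1, DUSP5, KLF4 and ATF3 lay just past the cut, between 0.50 and 0.55. They were named after their values were seen. DUSP5, at 0.53, lies on chromosome 10, where the genes past the filter had a median of 0.18. ATF3 was below the level filter in both arrays. Lower by at least 0.5 was 1 gene, KLF6, beside 6.47% of all named genes and 9.81% of those past the filter. After quantile normalization or removal of the level trend 9 were higher and 0 lower, with KLF6 at -0.44 and -0.43. The shares of all named genes moved in the same directions, to 5.27% and 5.29% higher and 4.84% and 4.80% lower. EGR3, a zinc finger transcription factor, stood at 4.23 in EGFP-ARHGAP4 cells and 3.42 in EGFP vector cells. It passed the level filter of 4.02 only through the EGFP-ARHGAP4 array. KLF6, another zinc finger factor, stood at 7.24 in EGFP-ARHGAP4 cells and 7.79 in EGFP vector cells, and its neighbours on chromosome 10 had a median of -0.53.

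CCN3, a matricellular gene of the same family as CCN1 and CCN2, also belongs to that list. It stood at 4.07 in EGFP-ARHGAP4 cells, against 2.46 in EGFP vector cells, a difference of 1.61. The EGFP vector value lay below the median of all features, and the gene passed the level filter narrowly and only through the EGFP-ARHGAP4 array. No fold is given for it. CCN3 was placed in both the immediate early list and the list of CCN genes, and is 1 of the 7 higher genes counted above. Whether it acts as an immediate early gene in these cells was not tested. The remaining family members CCN4, CCN5 and CCN6 were below the filter in both arrays, with differences of 0.09, 0.32 and 0.17. Within the measured CCN genes, CCN2 was the one with a negative difference.

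Among muscle ankyrin repeat proteins, the family of ANKRD1, ANKRD2 stood at 5.81 in EGFP-ARHGAP4 cells and 5.003 in EGFP vector cells, a difference of 0.81. It follows ANKRD1 by 20 places on chromosome 10, and its 8 neighbours had a median of 0.38 and a highest value of 0.88. ANKRD23, the other relative, was below the filter at 3.89 in EGFP-ARHGAP4 cells and 3.67 in EGFP vector cells. YBX1, a Y-box protein known to bind ANKRD1, differed by -0.27, and DES, which encodes the muscle filament protein desmin, by 0.05.

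**Figure D5:**
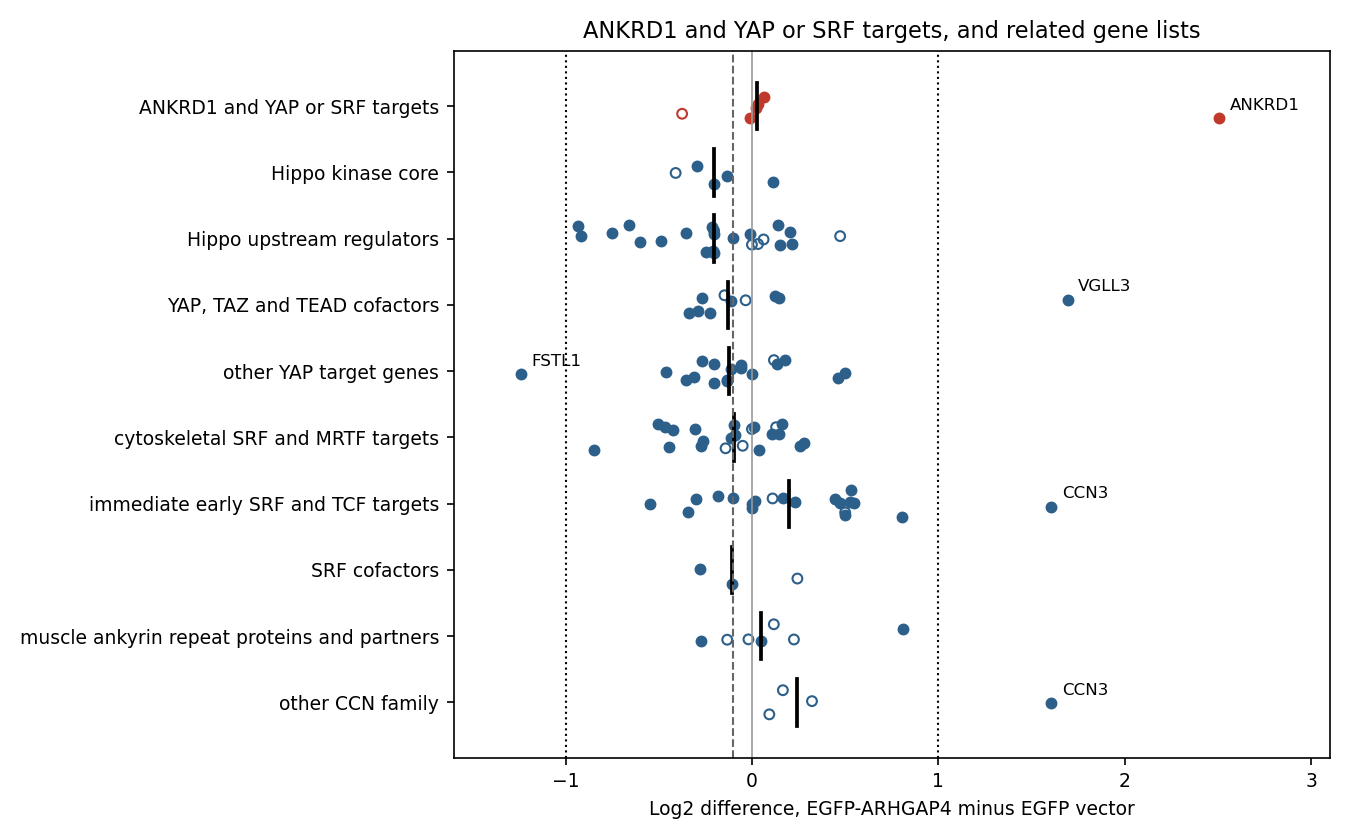
Log2 difference, EGFP-ARHGAP4 minus EGFP vector (x axis), of each measured gene in the target set and in 9 related lists. Filled points passed the level filter and open points did not, black bars are list medians, the dashed line is the median of genes past the filter (-0.10) and dotted lines mark 2-fold. Only ANKRD1, VGLL3, CCN3 and FSTL1 lie beyond a difference of 1 in these lists, with CCN3 below the median of all features in the EGFP vector array, while the list medians lie between -0.20 and 0.24.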

How the data were processed

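Per feature and array, the authors deposited a single log2 expression value that had already been normalized. How they scanned, summarised and normalized the arrays, and on which genome build, the sources do not state. The base of the logarithm follows from the values: the highest, 12.8, exceeds the natural log (11.1) and the log10 (4.82) of a 16-bit reading. The number of arrays limits the precision, and the overall level of RNA cannot be compared after normalization.

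Features were named through the platform annotation of the table: 15835 had 1 symbol, 0 had several and 28794 had none. All 15835 matched RefSeq (GRCh38.p14) by Entrez identifier, which also gave the order of genes along chromosomes. Features of 1 gene were averaged. The 2 samples were grouped by genotype, with 1 array each, so no test was run; calls are folds (2-fold) or log2 differences of 0.5. The members and lists were chosen with earlier results of these data known. Some genes in the text, such as FOS and MAP4K5, fall outside the naming rule that follows. Named genes are all members, ARHGAP4, up to 3 genes past the filter per list by absolute difference, together with any at 2-fold, and the 5 genes nearest to ANKRD1, leaving out small RNAs, LINC loci and olfactory receptors.

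Alternatives were quantile normalization, centring, removal of a lowess curve (span 0.3), the feature with the highest level, other filters and other thresholds. Calculations were tested on simulated data. The tools were Python 3.11.15, numpy 2.4.6, pandas 2.3.3, matplotlib 3.10.9 and statsmodels 0.14.6.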

Additional observations from a re-analysis of the deposited data

How the results depend on the processing

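The spread used to judge a moved value was the 0.21 pooled SD between features of the same gene. Many of the 118 log2 differences and list medians recomputed under the alternatives could not move. Centring shifted the values by 0, and the list medians already used all measured genes, so dropping the filter changed none. The choice of feature cannot alter ANKRD1, AMOTL2, AJUBA and SRF, with 1 feature each. That 117 of the 118 moved by less than 0.21 therefore overstates their stability. The exception was the median of muscle ankyrin repeat proteins and partners, 0.05, which was -0.27 once genes were filtered at the 0.75 quantile, where fewer genes are counted. It was also -0.02 without chromosome 10, a setting chosen after seeing the data. ANKRD1 stayed between 2.51 and 2.57 and CCN2 between -0.48 and -0.33 under the scalings and the choice of feature. Of 54 genes checked under the scalings, 2 changed sign, AJUBA and KIF20B. Some genes in the text were not among the 54, such as FOS, DUSP1, DUSP5, KLF4 and ATF3. The fibroblast median, 0.00, has no sign. The median of the 6 targets lay between 0.02 and 0.13. The median of immediate early targets, 0.20, was 0.01 under the stricter filter. The medians of the Hippo core (-0.20 to -0.08) and its upstream regulators (-0.21 to -0.09) stayed below 0. Those of the YAP, TAZ and TEAD genes (-0.23 to -0.07) and other YAP targets (-0.13 to -0.02) did so too. The median of genes past the filter was itself below 0, at -0.10 as deposited. It was -0.015 after quantile normalization and -0.008 after removal of the level trend. Other YAP targets, at -0.045 and -0.018 under those scalings, lay close to it. Scaling shifted the filtered genes' median by 0.09 at most.

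ANKRD1 was the only measured target past the threshold at 1.5-fold, 2-fold and 3-fold, and 0 remained without chromosome 10, since ANKRD1 lies there. Over all genes past the filter, the 77 higher and 61 lower turned into 39 and 35 under the stricter filter, 277 and 495 at 1.5-fold, and 25 and 5 at 3-fold. Without chromosome 10, 38 were lower. No paired analysis was possible because each group holds 1 array. With 1 array per group, leaving out a replicate could not be done either.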
